A study of Mus musculus with 9 samples.

Results

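The transcripts of 10 genes of testicular macrophages (Csf1r, Adgre1, Cd68, Cd163, Mrc1, Lyz2, C1qa, C1qb, C1qc and Cx3cr1) were followed in whole mouse testis. They were the rows of the expression table that carry these 10 symbols, among 22337 genes, and all 10 had counts in all 9 testes. The testes came from mice of 3 weeks on a C57BL/6 background, an age at which the first wave of spermatogenesis is still under way. There were 3 wild-type testes, 3 from Piwil4 WT/R264W mice, which carry 1 copy of the R264W substitution knocked in by genome editing, and 3 from Piwil4 R264W/R264W mice, which carry it on both alleles. Piwil4 encodes a PIWI protein of the germ line that acts with piRNAs against transposons, and the labels name no further allele and no treatment. The RNA was from the whole organ, so germ cells, Sertoli, Leydig, peritubular, vascular and immune cells were measured together, and fewer cells of a type and less RNA per cell cannot be told apart. The labels do not say whether the replicates came from separate litters, and the p-values measure only the spread between these testes.

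Macrophages are the main resident immune cells of the testis. They lie in the interstitium beside Leydig cells and on the wall of the seminiferous tubules, depend on signalling through the CSF1 receptor, take up debris through scavenger receptors, and are a local source of complement C1q. Of the 10 genes, Csf1r and Cx3cr1 encode receptors for a growth factor and for the chemokine fractalkine, Adgre1 encodes the F4/80 antigen, Cd68 a protein of late endosomes and lysosomes, Cd163 the scavenger receptor for haemoglobin and haptoglobin, and Mrc1 the mannose receptor CD206. Lyz2 encodes lysozyme M, and C1qa, C1qb and C1qc encode the 3 chains of C1q, the recognition part of the classical complement pathway.

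Many genes of macrophages are bound by PU.1, a factor of the ETS family. Sequences of 250 bases before the RefSeq start (GRCm38.p6) were given for 7 of the 10 genes: Mrc1, C1qb, C1qc, Cd163, Cx3cr1, Lyz2 and Cd68. The 4 printed here belong to the genes with the highest levels per transcript length among these 7, Lyz2, C1qb, C1qc and Mrc1, so that the regions beside the most abundant transcripts can be read. They lie at chr10:117282273-117282522 (Lyz2, minus strand), chr4:136886201-136886450 (C1qb, minus strand), chr4:136892915-136893164 (C1qc, minus strand) and chr2:14229164-14229413 (Mrc1, plus strand). Each is written 5' to 3' on the strand of its gene and ends at the base before the start. Capitals mark a match, on either strand, to GAGGAA, the letters searched as a PU.1-like core, or to the ETS-like core GGAAGT.
Lyz2: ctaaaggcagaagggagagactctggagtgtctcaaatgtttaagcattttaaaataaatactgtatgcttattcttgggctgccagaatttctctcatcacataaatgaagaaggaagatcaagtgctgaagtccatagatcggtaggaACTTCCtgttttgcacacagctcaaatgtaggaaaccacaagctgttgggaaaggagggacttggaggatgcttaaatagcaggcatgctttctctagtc
C1qb: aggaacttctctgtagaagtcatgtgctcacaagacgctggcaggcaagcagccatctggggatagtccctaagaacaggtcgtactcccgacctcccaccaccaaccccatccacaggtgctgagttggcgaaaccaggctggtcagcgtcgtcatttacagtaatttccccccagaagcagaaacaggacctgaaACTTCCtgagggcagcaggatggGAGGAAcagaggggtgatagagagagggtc
C1qc: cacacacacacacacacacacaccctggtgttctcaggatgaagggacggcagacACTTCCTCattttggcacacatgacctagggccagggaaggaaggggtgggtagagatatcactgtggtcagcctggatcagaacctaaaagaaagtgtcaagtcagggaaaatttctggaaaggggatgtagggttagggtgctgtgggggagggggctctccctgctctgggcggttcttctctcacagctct
Mrc1: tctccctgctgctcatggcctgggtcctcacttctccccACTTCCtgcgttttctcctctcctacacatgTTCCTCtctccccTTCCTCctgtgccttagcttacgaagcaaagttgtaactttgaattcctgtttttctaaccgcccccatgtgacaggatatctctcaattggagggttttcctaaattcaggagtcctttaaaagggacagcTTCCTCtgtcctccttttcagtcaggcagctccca

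GAGGAA on either strand was in 4 of the 7 sequences (C1qb, C1qc, Cd68 and Mrc1), and GGAAGT was also in 4 (C1qb, C1qc, Lyz2 and Mrc1). Over all 32851 sequences of this length, 23.3% held GAGGAA and 19.7% held GGAAGT. At least 1 of the motifs was in 5 of the 7 sequences and in 36.7% of all. The matches of C1qc, beginning 195 and 193 bases before the start, share letters, so that both motifs lie in 1 run of capitals. Mrc1 had 3 matches to GAGGAA, all on the opposite strand, and the nearest began 35 bases before the start. A match describes the letters in this window only.

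The libraries held 17964135 to 24279056 estimated counts in all. Their largest difference was not one of genotype. Spermatids had appeared to very different degrees, which was summarised by a stage score, an average of log2 CPM (CPM, counts scaled for library depth, here with TMM factors) over 20 genes of round spermatids. The score was 5.99, 2.74 and 1.57 in wild-type replicates 1 to 3, 5.02, 3.67 and 0.99 in Piwil4 WT/R264W and 2.6, 3.79 and 5.81 in Piwil4 R264W/R264W. Each genotype therefore spanned much of the range. The summed CPM of 6 epididymal genes was 48.4 in Piwil4 R264W/R264W replicate 1 and at most 5.73 in the other testes. Without that testis, 0 of the 10 macrophage genes were called by genotype and 1 by stage, as with it. Of all genes, 3108 of 15976 were called by stage without it and 4145 of 15771 with it. Medians of the fold changes of the 10 genes moved and are given beside those results.

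The levels of the 10 genes were set beside those of genes of other leukocytes, which in whole testis does not show which cells made the transcripts. S100a8, S100a9, Ly6g, Elane, Ngp and Retnlg, genes of neutrophils, had no count in any of the 9 testes, where 3 counts make 0.124 to 0.167 CPM. Of 10 monocyte and neutrophil genes, 8 had a mean under 1 CPM, as did 9 of 11 lymphocyte genes, 5 of 5 mast cell genes and 4 of 6 dendritic cell genes. The summed CPM of the 10 macrophage genes was 100.1 to 130.3 per testis, against 18.7 to 22.8 for the dendritic cell genes, 4.41 to 6.76 for the lymphocyte genes and 0.135 to 0.578 for the mast cell genes. Of the dendritic cell genes, Zbtb46 at a mean of 13.6 CPM and Flt3 at 6.04 CPM made up most of the sum, and Itgax, Ccr7 and Clec9a were at 0.123 CPM or less. All 10 macrophage genes had a mean above 1 CPM.

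Levels were compared between genes on FPKM, which divides by transcript length. Lyz2 was the most abundant, at 16.7 ± 3.37 FPKM (SD, n = 9 testes). Next came the 3 chains of C1q, C1qa at 8.09 ± 1.05, C1qb at 7.95 ± 1.41 and C1qc at 7.64 ± 0.832 FPKM, followed by Mrc1 at 7.17 ± 0.895 FPKM. Csf1r was at 4.43 ± 1.36, Cd68 at 2.07 ± 0.378, Adgre1 at 1.53 ± 0.894, Cx3cr1 at 1.51 ± 0.359 and Cd163 at 0.234 ± 0.0778 FPKM. Lyz2 has a close paralog, Lyz1, and how reads of both were split by the counting is not given in the sources used here.

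Neighbours in this order were compared within each testis on log2 FPKM by a two-sided exact permutation test of signs, with 9 comparisons adjusted by Benjamini-Hochberg. Lyz2 exceeded C1qa in 9 of 9 testes, Mrc1 exceeded Csf1r in 9 of 9, Csf1r exceeded Cd68 in 9 of 9 and Cx3cr1 exceeded Cd163 in 9 of 9, each with an exact p of 0.00391, the smallest this design can give, and an adjusted p of 0.00879. The steps from C1qa to C1qb, from C1qb to C1qc and from C1qc to Mrc1 were not beyond their spread. Each held in 5 of 9 testes, with an exact permutation p of 0.711, 0.629 and 0.277. C1qa and C1qc are not neighbours in this order and were not tested against each other, but C1qa was the higher in every testis. The step from Cd68 to Adgre1 held in 8 of 9 testes with an exact permutation p of 0.0312 and an adjusted p of 0.0563. The exception was Piwil4 R264W/R264W replicate 3, where Adgre1 was at 3.89 FPKM and Cd68 at 2.39, while Adgre1 was at 1.05 to 1.52 FPKM in the other 8 testes. That FPKM goes with a shorter implied length than in the other testes, as described with the lengths, and it widens the SD of Adgre1 given here. The FPKM of Csf1r goes with implied lengths from 1.75 to 3.97 kb between testes, so its level, its SD and its place between Mrc1 and Cd68 depend on them. Adgre1 and Cx3cr1 were also not ordered, the exact permutation p being 0.711.

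The spread of the macrophage genes between testes lay on both sides of that of the median gene. The coefficient of variation of CPM over the 9 testes was 11.2% for C1qc, 13.2% for C1qa, 13.3% for Mrc1 and 14.0% for Csf1r, and 31.5% for Cd163 at the other end, beside a median of 14.3% over 15771 genes. For Cd163, whose counts were 11 to 32 per testis, counting alone would give 21.2%. For Lyz2, with 353 to 647 counts, counting would give 4.62% of the 21.4% seen. The highest testis exceeded the lowest by 1.38-fold for C1qc and by 2.47-fold for Cd163.

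In the comparison of homozygous mutant with wild-type testes, which asks whether the substitution altered the testis transcriptome at this age, none of the 10 macrophage genes was called. Tests were by edgeR's quasi-likelihood method with Benjamini-Hochberg adjustment over all genes, and a gene was called at an adjusted p under 0.05. No gene of 15543 was called (0%), and 1.26% had an unadjusted p under 0.05. No macrophage gene was called, and 0 of 10 had an unadjusted p under 0.05, whereas DESeq2 called 2 genes in all, with 0 of the 10 called or at an unadjusted p under 0.05. The 10 log2 fold changes ran from -0.32 for Cd163 to 0.28 for Cd68, with 9 of 10 above 0 and a median of 0.15, beside a median of -0.01 and 48.0% above 0 over all genes. Leaving out wild-type replicate 1 moved the median of the 10 to 0.24. Leaving out wild-type replicate 3 moved it to 0.09, with 7 of 10 above 0. When the homozygous mutant testis with epididymal transcripts was left out, this median was 0.13, with 8 of 10 above 0.

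**Figure D1:**
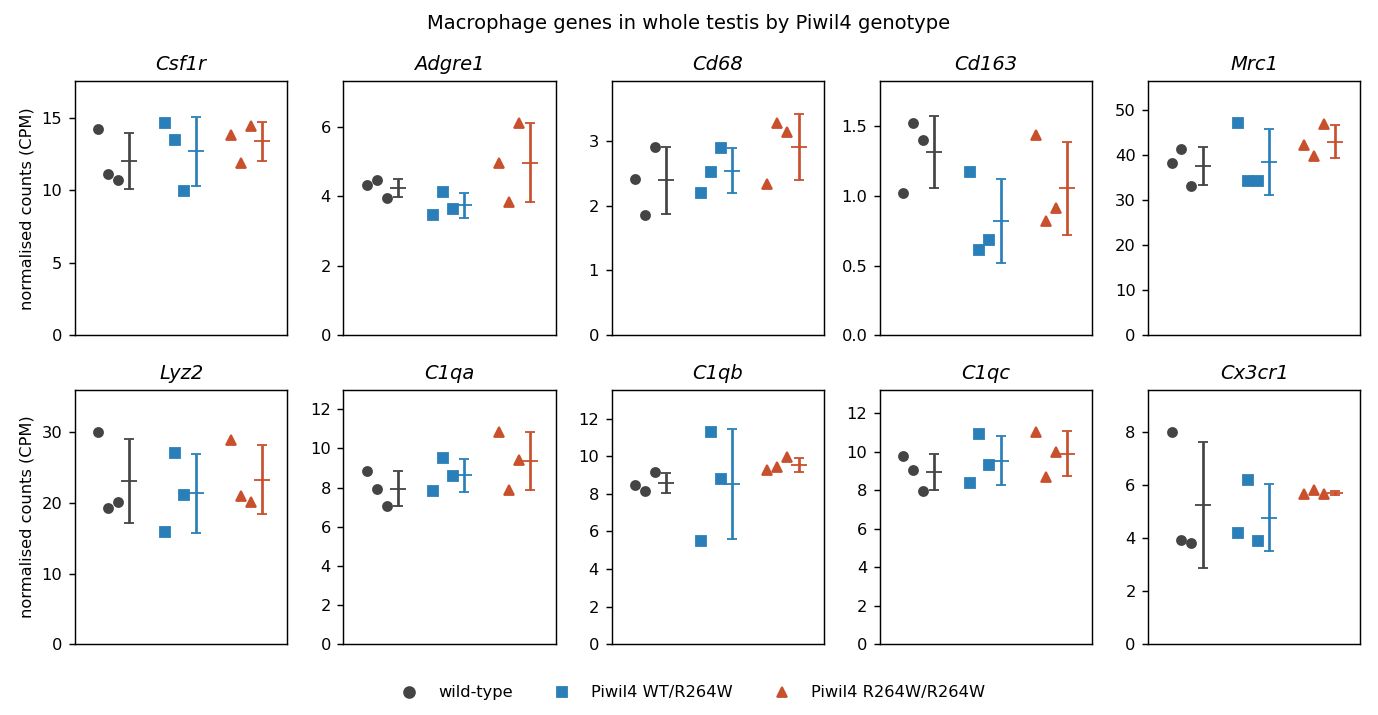
Normalised counts (TMM-scaled CPM, linear axes from 0) of the 10 macrophage genes in each of the 9 testes by genotype, with a bar for the mean and SD of 3 testes. The symbols of the genotypes overlap in nearly every panel, and C1qb, at 9.26 to 9.96 CPM in Piwil4 R264W/R264W, lies above the wild-type testes at 8.13 to 9.17 CPM.

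Among the receptors, Csf1r was at 14.2, 11.2 and 10.7 CPM in wild-type replicates 1 to 3, 14.6, 13.5 and 9.99 CPM in Piwil4 WT/R264W and 13.8, 11.9 and 14.5 CPM in Piwil4 R264W/R264W. Cx3cr1 was at 7.98, 3.92 and 3.81 CPM in wild-type, 4.17, 6.20 and 3.89 CPM in Piwil4 WT/R264W and 5.64, 5.80 and 5.63 CPM in Piwil4 R264W/R264W. For both receptors 1 wild-type testis stood above the other two, and the 3 genotypes overlapped. The 3 homozygous mutant testes had nearly the same Cx3cr1 level, 5.69 ± 0.0926 CPM (SD, n = 3), whereas the wild-type testes gave 5.24 ± 2.38 CPM.

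Adgre1, the F4/80 gene, was at 4.31, 4.46 and 3.96 CPM in wild-type, 3.45, 4.13 and 3.63 CPM in Piwil4 WT/R264W and 4.97, 3.84 and 6.09 CPM in Piwil4 R264W/R264W. Cd68 was at 2.41, 1.86 and 2.90 CPM in wild-type, 2.20, 2.51 and 2.89 CPM in Piwil4 WT/R264W and 2.33, 3.27 and 3.13 CPM in Piwil4 R264W/R264W. The highest Adgre1 value was in homozygous mutant replicate 3 and the highest Cd68 value in replicate 2 of that genotype, but replicate 2 for Adgre1 and replicate 1 for Cd68 lay among the other testes.

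The scavenger receptors went different ways. Cd163 was at 1.02, 1.52 and 1.40 CPM in wild-type, 1.17, 0.614 and 0.683 CPM in Piwil4 WT/R264W and 1.43, 0.816 and 0.911 CPM in Piwil4 R264W/R264W. Mrc1 was at 38.2, 41.4 and 33.0 CPM in wild-type, 47.0, 34.2 and 34.2 CPM in Piwil4 WT/R264W and 42.1, 39.7 and 46.8 CPM in Piwil4 R264W/R264W. Cd163 was lowest in 2 of the heterozygous testes and Mrc1 highest in the remaining one of that genotype, and the groups overlapped for both genes. Mrc1 had the smallest p of the 10 against wild-type, with a log2 fold change of 0.19 (SE 0.12), an unadjusted p of 0.164 and an adjusted p of 0.9998 by edgeR.

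Lyz2 was at 30.0, 19.3 and 20.1 CPM in wild-type, 15.8, 27.1 and 21.1 CPM in Piwil4 WT/R264W and 28.9, 20.9 and 20.1 CPM in Piwil4 R264W/R264W. One testis of each genotype stood at 27.1 CPM or more and the others at 21.1 CPM or less, so that the genotype means were 23.2 ± 5.95, 21.3 ± 5.63 and 23.3 ± 4.82 CPM (SD, n = 3 each).

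Of the C1q chains, C1qb spread most between testes and C1qc least. C1qa was at 8.86, 7.93 and 7.05 CPM in wild-type, 7.81, 9.49 and 8.57 CPM in Piwil4 WT/R264W and 10.8, 7.88 and 9.39 CPM in Piwil4 R264W/R264W. C1qb was at 8.49, 8.13 and 9.17 CPM in wild-type, 5.47, 11.3 and 8.78 CPM in Piwil4 WT/R264W and 9.26, 9.43 and 9.96 CPM in Piwil4 R264W/R264W. C1qc was at 9.79, 9.06 and 7.96 CPM in wild-type, 8.39, 10.9 and 9.30 CPM in Piwil4 WT/R264W and 11.0, 8.69 and 9.96 CPM in Piwil4 R264W/R264W. C1qb was the single gene of the 10 whose homozygous mutant testes all lay above the wild-type testes, with an exact two-sided permutation p of 0.1, the smallest that 3 against 3 can give, where 5.58% of all genes, 2.15% on the higher side, had groups that did not overlap. The edgeR log2 fold change of C1qb was 0.15 (SE 0.13, unadjusted p = 0.278), and that of C1qa, the next smallest p after Mrc1, was 0.23 (SE 0.18, unadjusted p = 0.228).

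Against the heterozygous testes, the homozygous mutant testes again had no macrophage gene past the test. No gene of 15463 was called (0%), and 2.22% had an unadjusted p under 0.05, among them 0 of the 10, while DESeq2 called 6 genes in all and gave 0 of the 10 on both counts. The log2 fold changes were all above 0, from 0.06 for C1qc to 0.41 for Adgre1, with a median of 0.17 beside 0.01 over all genes, of which 51.4% were above 0. This depended on single testes. Without Piwil4 WT/R264W replicate 1, 7 of 10 were above 0, with a median of 0.15. Without Piwil4 R264W/R264W replicate 1, the testis with epididymal transcripts, it was 8 of 10, with a median of 0.12. The median was 0.21 without Piwil4 R264W/R264W replicate 2. On log2(FPKM + 0.1) by limma, 8 of 9 genes were above 0. Adgre1 had the smallest p (log2 fold change 0.41, SE 0.22, unadjusted p = 0.104, adjusted p = 0.948 by edgeR), followed by Cx3cr1 (0.26, SE 0.21, unadjusted p = 0.261). No macrophage gene had groups that did not overlap, against 7.06% of all genes.

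Heterozygous against wild-type testes gave no call either. No gene of 15413 was called (0%), 1.11% had an unadjusted p under 0.05, and 0 of the 10 did. DESeq2 called 0 genes, with 108 at an unadjusted p under 0.05 and 0 of the 10 among them. The 10 log2 fold changes were divided evenly, 5 above 0, with a median of 0.00 beside -0.02 over all genes, of which 44.9% were above 0. With single testes left out, that median ran from -0.13 without Piwil4 WT/R264W replicate 2 to 0.10 without wild-type replicate 1. Cd163 had the largest, -0.67 (SE 0.36, unadjusted p = 0.107, adjusted p = 0.9998 by edgeR), and Adgre1 the next smallest p, at -0.19 (SE 0.17, unadjusted p = 0.312). The groups overlapped for all 10 genes, against 5.36% of genes without overlap. The 3 comparisons share libraries, so that their values are not independent.

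**Figure D2:**
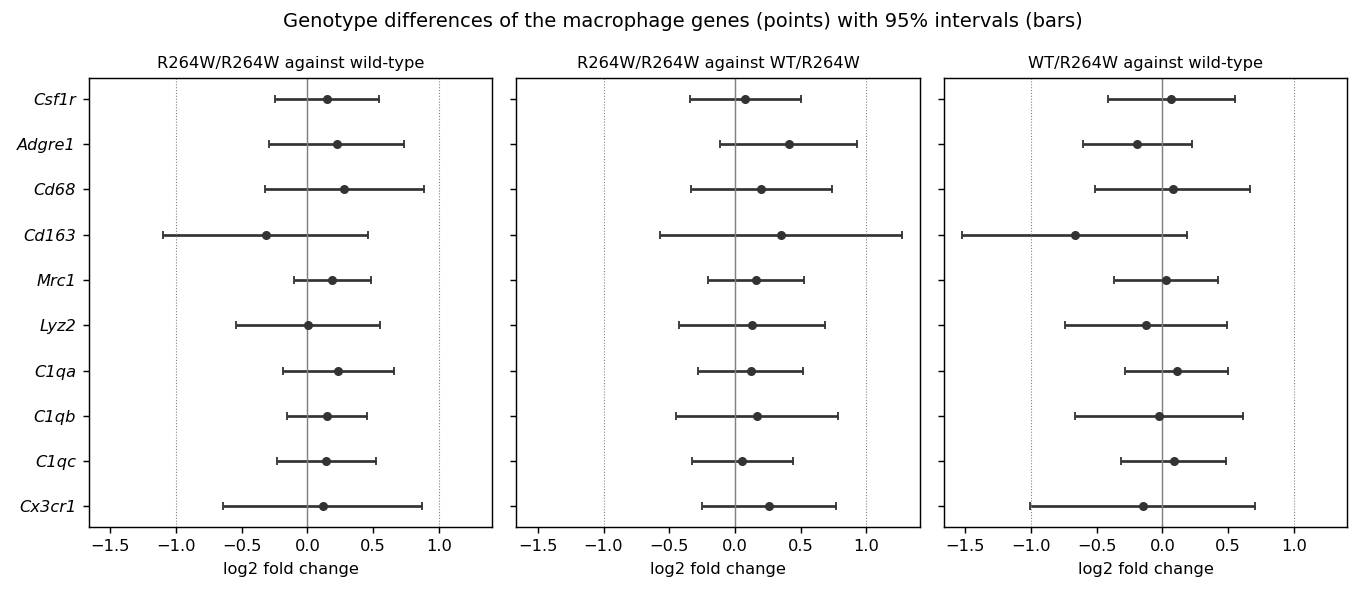
Log2 fold changes of the 10 macrophage genes in the 3 genotype comparisons by edgeR, with unadjusted 95% intervals as bars, a solid line at 0 and dotted lines at a 2-fold change. All intervals include 0, and those of Cd163 are the widest and reach past the dotted lines in each comparison.

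The size of a difference that these data still allow was read from the 95% intervals of the edgeR fits, unadjusted for the number of genes. Between homozygous mutant and wild-type testes, the interval lay within a 2-fold change in either direction for 9 of 10 genes, the exception being Cd163, whose lower bound was 0.468-fold. Between homozygous and heterozygous mutant testes it did so for 9 of 10, with an upper bound of 2.41-fold for Cd163. Between heterozygous and wild-type testes it did so for 8 of 10, with lower bounds of 0.348-fold for Cd163 and 0.499-fold for Cx3cr1. For the C1q chains against wild-type, homozygous mutant testes had intervals of 0.877 to 1.58-fold for C1qa, 0.898 to 1.37-fold for C1qb and 0.851 to 1.43-fold for C1qc.

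When the stage score was added as a covariate and all 9 testes were fitted together, no macrophage gene was called in any of the 3 genotype comparisons, and none of 15771 genes was (0% in each). The shares with an unadjusted p under 0.05 were 2.63% for homozygous mutant against wild-type, 3.27% for homozygous against heterozygous mutant and 3.71% for heterozygous mutant against wild-type, and 0 of the 10 were among them in each. The medians of the 10 log2 fold changes were 0.14, 0.14 and 0.00. The first was 0.04 (6 of 10 above 0) without Piwil4 R264W/R264W replicate 1, the testis with epididymal transcripts, and 0.25 without wild-type replicate 1. The second was 0.04 (6 of 10 above 0) without that same mutant testis, 0.02 (6 of 10) without Piwil4 WT/R264W replicate 1 and 0.22 without wild-type replicate 1. The third ran from -0.13 without Piwil4 WT/R264W replicate 2 to 0.15 without Piwil4 WT/R264W replicate 1. The smallest unadjusted p values were 0.189, 0.101 and 0.116.

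The progress of the first wave was the larger axis of the data, and 9 of the 10 macrophage genes had no slope on it past the threshold. The slope of log2 expression per unit of the stage score, with genotype in the fit, was called for 26.3% of 15771 genes, 17.6% higher and 8.66% lower at later stages. Of the 10 macrophage genes, 1 was called, Csf1r, which was higher at later stages. An unadjusted p under 0.05 was reached by 2 of the 10, Csf1r and Cx3cr1, and by 39.3% of all genes. The 10 slopes had a median of 0.01 and ran from -0.04 for Cd163 to 0.14 for Cx3cr1, beside a median of -0.01 over all genes, and 7 of 10 were above 0 against 44.8% of all genes.

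In order of rising stage score, Csf1r was at 9.99, 10.7, 13.8, 11.2, 13.5, 11.9, 14.6, 14.5 and 14.2 CPM. The 3 testes of the highest score, 1 of each genotype, were the 3 highest for Csf1r, and the 2 of the lowest score were the 2 lowest. The slope was 0.10 log2 units per unit of score (SE 0.03, edgeR unadjusted p = 0.00871, adjusted p = 0.0369), which makes 1.40-fold (95% interval 1.11 to 1.77) between the scores of the earliest and the latest testis. The call was lost when any 1 of 7 testes was left out, with an adjusted p of 0.172, 0.0548 and 0.102 without wild-type replicates 1, 2 and 3, 0.0558 and 0.202 without Piwil4 WT/R264W replicates 1 and 3, and 0.0546 and 0.0814 without Piwil4 R264W/R264W replicates 2 and 3. It was also lost on FPKM, where the slope was 0.04 with an adjusted p of 0.644 by limma.

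Cx3cr1 in the same order was at 3.89, 3.81, 5.64, 3.92, 6.20, 5.80, 4.17, 5.63 and 7.98 CPM, with the earliest testes low and the latest highest but Piwil4 WT/R264W replicate 1 low at a late stage. Its slope of 0.14 (SE 0.06, edgeR unadjusted p = 0.0317, adjusted p = 0.0923) missed the threshold, and without that testis it was 0.19 (edgeR adjusted p = 0.0157), whereas without wild-type replicate 1, the latest testis, it was 0.03 (edgeR adjusted p = 0.785). Mrc1 was at 34.2, 33.0, 42.1, 41.4, 34.2, 39.7, 47.0, 46.8 and 38.2 CPM in this order, with the latest testis near the middle. Its slope was 0.06 (SE 0.03, edgeR unadjusted p = 0.0544, adjusted p = 0.135). The slopes of Adgre1, Cd68, Cd163, Lyz2, C1qa, C1qb and C1qc lay between -0.04 and 0.04 and had an unadjusted p of 0.503 or more.

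**Figure D3:**
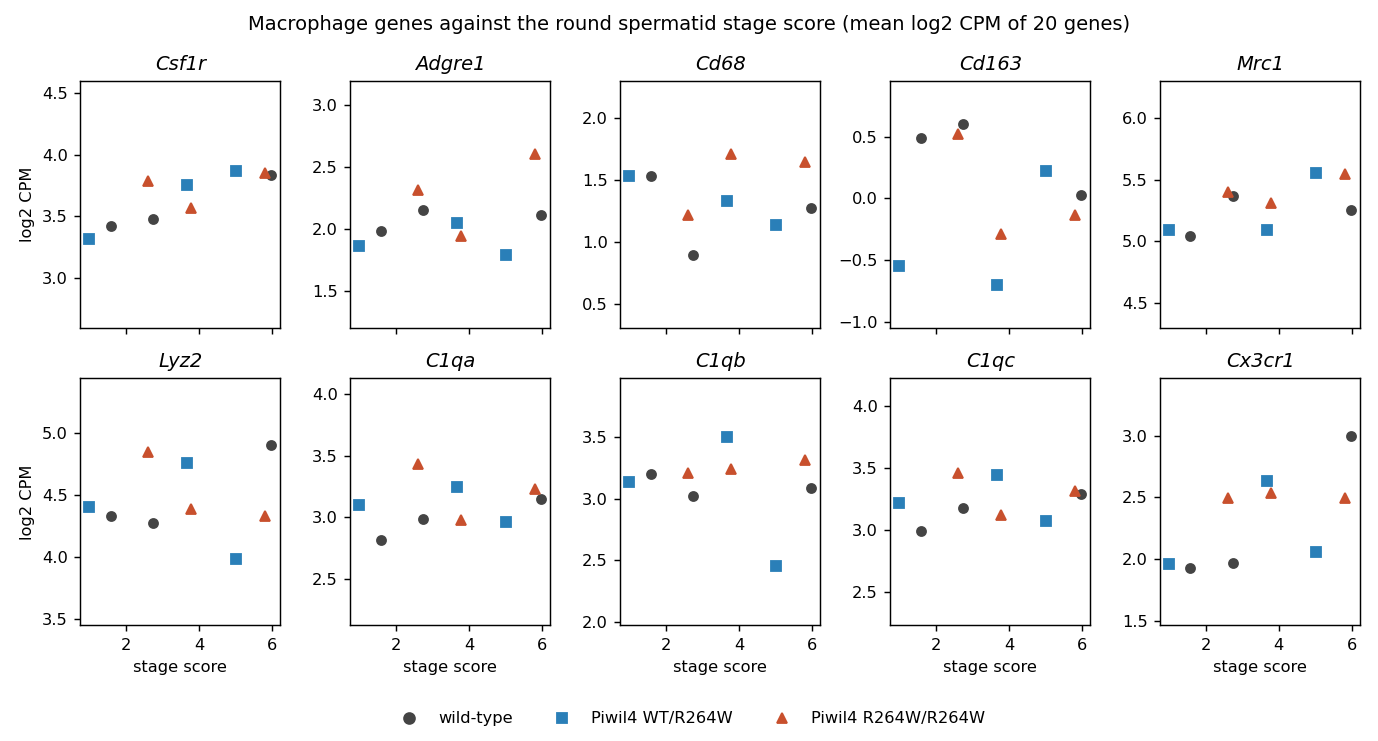
Log2 CPM of the 10 macrophage genes in each testis against the stage score (mean log2 CPM of the spermatid genes), with symbols for genotype; each vertical axis spans 2 log2 units. Csf1r rises from 9.99 CPM in the earliest testis to 14.2 CPM in the latest, whereas Lyz2 and the C1q genes have no slope past the test.

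Genes of other somatic cells were also read on the score, beside the 26.3% of all genes that were called. The Leydig genes Cyp17a1 and Cyp11a1, which encode steroidogenic enzymes, rose by 0.75 (SE 0.15, adjusted p = 0.00315) and 0.32 (SE 0.07, adjusted p = 0.00541) log2 units per unit of score by edgeR, and 2 of 6 Leydig genes were called higher. The summed CPM of the 6 Leydig genes ran from 151 to 386 over the testes. Of 12 Sertoli genes, 3 were called lower and 1 higher. Of 8 endothelial genes 1 was called, higher, and of 6 peritubular myoid genes 1 was called, also higher. The part of these cell types in the Csf1r slope was not tested.

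Other macrophage lists were read the same way. Over all genes, 17.6% were called higher and 8.66% lower at later stages, and the counts in these lists are to be read beside those shares. Of 16 further macrophage and myeloid genes, 1 was called higher and 2 lower, with a median slope of -0.03. The one called higher was Aif1, which encodes the IBA1 protein used to mark macrophages and microglia, with a slope of 0.93 (SE 0.04, edgeR adjusted p = 1.25e-09). Aif1 was at 1.52, 2.03, 3.58, 3.48, 6.70, 9.39, 17.8, 27.1 and 37.0 CPM in order of rising score, an almost unbroken climb across genotypes. Its slope lay within the range of the 20 round spermatid genes that make up the score, 0.56 to 2.17 with a median of 0.81, and above that of each other macrophage gene tested. The part of spermatid RNA in the Aif1 counts was not tested. Those called lower were Mertk, a receptor for the uptake of apoptotic cells, at -0.08 (SE 0.03, edgeR adjusted p = 0.0339), and Mpeg1, a pore-forming protein of phagocytes, at -0.08 (SE 0.03, edgeR adjusted p = 0.0250). DESeq2 called 1 of these 16 genes higher and 1 lower.

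Of the 11 genes of the CSF1 axis and of myeloid transcription factors, which include the ligands Csf1 and Il34 and the factors Spi1 and Irf8, none was called with stage, none had an unadjusted p under 0.05, and the median slope was -0.03; DESeq2 gave 0 on both counts. Csf1, the ligand of the Csf1r product, was at 8.71 ± 1.15 CPM in wild-type, 7.51 ± 0.463 in Piwil4 WT/R264W and 9.41 ± 0.917 in Piwil4 R264W/R264W testes (SD, n = 3 each). Of 10 resident scavenging genes tested, 1 was called, Msr1, a scavenger receptor, with a slope of 0.30 (SE 0.08, edgeR adjusted p = 0.0113). Of 12 genes of the complement cascade beside C1q, 1 was called, C4b, with a slope of 0.13 (SE 0.04, edgeR adjusted p = 0.0456), which encodes a form of C4, cleaved downstream of C1q.

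**Figure D4:**
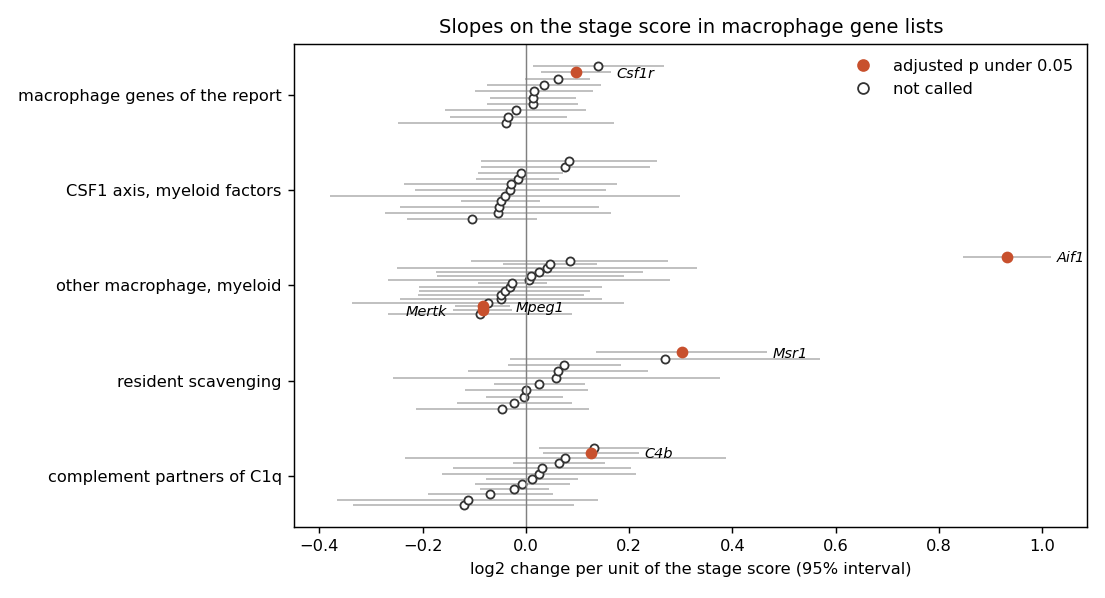
Slope of log2 expression per unit of the stage score, with 95% intervals, for the 10 macrophage genes and 4 related lists; filled symbols have an adjusted p under 0.05. The filled symbols are Csf1r, Aif1, Mertk, Mpeg1, Msr1 and C4b, and Aif1 at 0.93 lies far to the right of the others.

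With genotype, no gene of these lists was called in any comparison by edgeR or DESeq2. Between homozygous and heterozygous mutant testes, 3 of 9 resident scavenging genes tested had an unadjusted p under 0.05 and were higher, Stab1 with a log2 fold change of 0.68 (SE 0.22, unadjusted p = 0.0177), F13a1 with 0.51 (SE 0.17, unadjusted p = 0.0194) and Cbr2 with 0.37 (SE 0.14, unadjusted p = 0.0329), each with an edgeR adjusted p of 0.948. The median of that list was 0.29. Of the 16 other macrophage genes, 2 did so, Itgam at 0.97 (SE 0.33, unadjusted p = 0.0231) and Laptm5 at 0.40 (SE 0.16, unadjusted p = 0.0424), with a list median of 0.19. Of 6 antigen presentation genes tested, 3 had an unadjusted p under 0.05 and were lower, with a list median of -0.88, the opposite direction to the 10 genes. The same list had 2 of 6 higher at this p in heterozygous against wild-type testes, with a median of 0.77, and 1 of 6 lower in homozygous mutant against wild-type testes, with a median of -0.28. The summed CPM of its 7 genes was 14.6 ± 1.35 in wild-type, 21.4 ± 5.53 in Piwil4 WT/R264W and 12.96 ± 1.22 in Piwil4 R264W/R264W testes (SD, n = 3 each). In the whole table, 1.17% of genes were higher and 1.05% lower at this p in homozygous against heterozygous mutant testes. By DESeq2, 2 of 9 resident scavenging genes, 1 of 16 other macrophage genes and 3 of 6 antigen presentation genes reached an unadjusted p under 0.05 in that comparison. For antigen presentation DESeq2 gave 1 of 6 in heterozygous and 0 of 6 in homozygous mutant against wild-type testes.

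Against wild-type, the homozygous mutant testes had 0 of 10 resident scavenging genes and 0 of 16 other macrophage genes at an unadjusted p under 0.05, with medians of 0.25 and 0.03, and 1 of 11 complement genes, Hc, which encodes C5, lower at -1.12 (SE 0.30, unadjusted p = 0.00914, edgeR adjusted p = 0.9998). The heterozygous testes had 0 of 8, 0 of 16 and 0 of 11 of these, and DESeq2 gave the same 3 counts.

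How far the 10 genes moved together was described by Pearson's r of log2 CPM over the 9 testes, which share libraries and scaling. The closest pair was C1qa and C1qc, with r = 0.96, and C1qb, whose product joins theirs in the same protein, had r = 0.53 with C1qc. Lyz2 had r = 0.75 with C1qc and 0.75 with Cx3cr1. Over the 45 pairs the median was 0.30, with 13 pairs above 0.5 and 14 below 0, and the lowest was Cd68 with Cd163, at -0.53. The 10 genes did not rise and fall as 1 block across these testes.

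Of all genes, those whose log2 CPM was most like the mean of the 10 were Adhfe1 (r = 0.96), Cmbl (0.95), Glb1l2 (0.95), Itih2 (0.94), Supt3 (0.93), Gpr82 (0.93), Crbn (0.92), Tmem106a (0.92), Gins4 (0.92) and Trpc5os (0.92), over 9 testes. After genotype and stage score were removed they were Gpr82 (r = 0.995), Kifbp (0.99), Galk1 (0.99), Nme8 (0.99), Lrrfip2 (0.99), Itpripl2 (0.98), Svop (0.98), Tchh (0.98), Hap1 (0.97) and Glb1l2 (0.97). Gpr82, which encodes an orphan receptor and was at a mean of 0.597 CPM, and Glb1l2 were the 2 genes in both. These values describe 9 testes that share scaling. The genes were picked as the highest of all, and removing genotype and stage score leaves fewer free values than 9. High r values are therefore not a result about these genes. None of them was in the macrophage lists.

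The deposited counts and FPKM gave different pictures of 2 genes. Dividing the unscaled CPM by the FPKM of the same testis gives an implied length in kb. It is the transcript length behind the FPKM only if counts and FPKM rest on the same reads, which the sources used here do not say. Over all genes the highest of the 9 lengths exceeded the lowest by a median of 1.05-fold, and 3.28% of 15541 genes reached 2-fold. For 8 of the 10 macrophage genes the ratio was at most 1.08, but it was 2.26 for Csf1r and 2.24 for Adgre1.

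For Adgre1, homozygous mutant replicate 3 had an implied length of 1.49 kb against a median of 3.32 kb. It held 107 counts, within the range of 69 to 111, yet its FPKM was 3.89 where the other 8 testes had 1.05 to 1.52. The mean of the homozygous mutant testes was therefore 2.19 ± 1.48 FPKM against 1.26 ± 0.0839 in wild-type, whereas on CPM it was 4.96 ± 1.13 against 4.24 ± 0.257 (SD, n = 3 each). For Csf1r the length ran from 1.75 kb in Piwil4 WT/R264W replicate 3 to 3.97 kb in wild-type replicate 2. The former had the lowest CPM of Csf1r, 9.99, and the second highest FPKM, 5.95. Fold changes and slopes of Csf1r and Adgre1 given here rest on the counts.

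**Figure D5:**
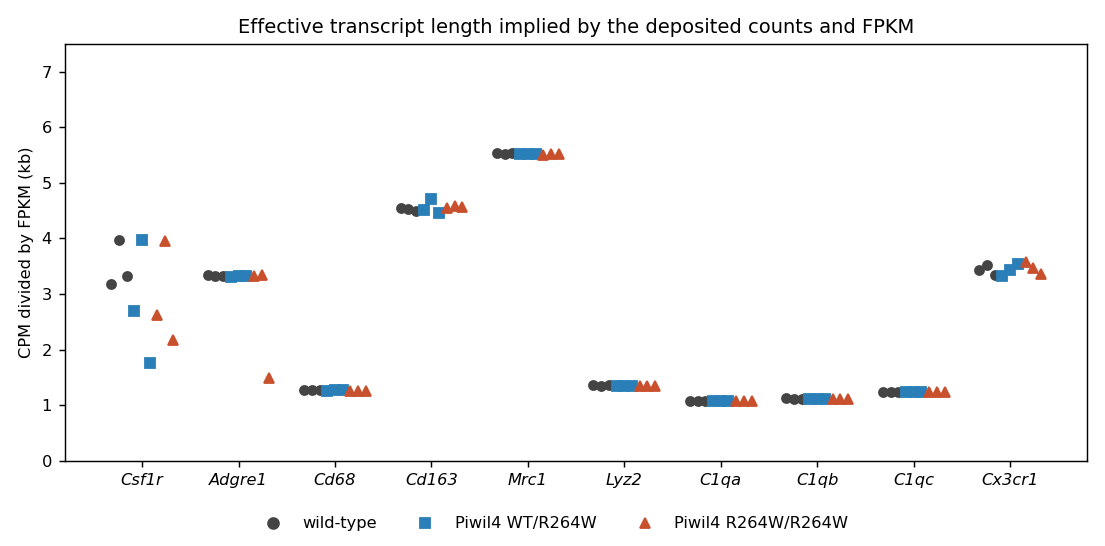
Transcript length in kb implied by dividing CPM by FPKM in each of the 9 testes for the 10 macrophage genes, coloured by genotype. The testes lie within 1.08-fold of each other for 8 genes, spread from 1.75 to 3.97 kb for Csf1r, and for Adgre1 leave 1 Piwil4 R264W/R264W testis at 1.49 kb below the others.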

How the data were processed

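The series holds RNA sequencing of 9 whole testes, grouped by the genotype in the labels. Libraries were made by the authors with an mRNA kit and read as 150 bp pairs. The submitters' processing notes name fastp 0.18.0, StringTie 1.3.1, DESeq2 and build mm39, and the aligner, counter and annotation are not given in the sources used here. The deposited table holds an estimated count per gene and testis, not scaled by the authors for depth, of which 89.2% are whole numbers, and an FPKM value per gene from the authors. Promoter sequences are RefSeq's, on GRCm38.p6, and no coordinate was moved between builds.

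Estimated counts were rounded. In R 4.3.3, each pair of genotypes was fitted alone in edgeR 4.0.16 with filterByExpr, TMM scaling and the two-sided quasi-likelihood test, adjusted over all genes tested. The slope was fitted over 9 testes with genotype and the stage score. CPM are TMM-scaled, and log2 CPM used a prior count of 1. The scripts were tested on simulated data. A count of 0 allows up to 3 counts, for counting error only. Alternatives were DESeq2 1.42.0, its size factors, scaling on 12 Sertoli genes, other filters (none, or at least 10 counts in every library), all 9 testes in 1 fit, a replicate block, a pachytene score, limma 3.58.1 on log2(FPKM + 0.1) and log2(FPKM + 1) for genes whose mean FPKM reached 0.5, and each testis left out. On the FPKM scale changes of low genes are understated.

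The 10 genes were given in full, other lists by counts and up to 3 genes of smallest p per comparison, and the 10 genes most like the mean. Values beyond that rule, those of Csf1 and of Aif1 by testis among them, were picked after they were seen. Members and lists were chosen with earlier results of these data known.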

Additional observations from a re-analysis of the deposited data

How the results depend on the processing

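In the 3 genotype comparisons, with or without the stage score, 0 of the 10 macrophage genes were called under every alternative run, and in the fits without the stage score the fold changes of the 2 genes of smallest p in each comparison kept their sign. With the stage score, that of Cx3cr1 in homozygous against heterozygous mutant ran from -0.10 to 0.37 with single testes left out. Cd163 could not be fitted on FPKM, being under the minimum. Scaling on Sertoli genes moved the median log2 fold change of all genes to 0.20 for homozygous against heterozygous mutant and to -0.22 for heterozygous mutant against wild-type. Relative to those medians the macrophage genes stood at 0.15 and 0.03, as against 0.16 and 0.02 before, but the number above 0 in the second comparison went from 5 to 0.

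For the slope on the stage score, 1 of the 10 macrophage genes was called, beside 4145 of 15771 genes in all. Under Sertoli scaling 3 were (Csf1r, Cx3cr1 and Mrc1), beside 3107 of 15771. That scaling moved the median slope of all genes from -0.01 to 0.04, and the number of the 10 above 0 from 7 to 10. With limma on log2(FPKM + 0.1) 0 of 9 fitted were called, beside 4710 of 14154. With single testes left out 0 to 1 of the 10 were called, beside 2106 to 6211 genes in all. With the pachytene score 1 of the 10 was called, beside 5408 of 15771 genes in all, but it was Cx3cr1 and not Csf1r, whose edgeR adjusted p was then 0.0682. Leaving out Piwil4 WT/R264W replicate 1 also called Cx3cr1 in place of Csf1r. The replicate numbers are shared between genotypes, and deviations of same-numbered testes from their group means correlated between -0.73 and 0.78. The testes also differed in stage score, so these values cannot tell whether the numbers mark a shared litter or batch. The numbers were not treated as pairs in the main fits. With a replicate block 0 of the 10 macrophage genes had a called slope, beside 3407 of 15771 genes in all, and the Csf1r slope was 0.08 (edgeR adjusted p = 0.146). The cause was not tested for any of these.

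Depth limits Cd163 most, with 11 to 32 counts per testis. Groups of 3 left intervals for it from 0.348-fold (heterozygous mutant against wild-type) to 2.41-fold (homozygous against heterozygous mutant).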
